A study of Saccharomyces cerevisiae with 20 samples.

Results

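The baseline of translation was measured in exponentially growing budding yeast that express the RNA helicase Ded1 at 30C, by setting ribosome footprints against the mRNA of the same cells. The members were the genes with a mean mRNA level of at least 20 RPKM (read counts scaled to gene length and to the depth of the library) in the 3 mRNA libraries of these cells, which were 4385 of 6679 genes in the table. The gene at the lower edge was TDA9 at 20.0 RPKM, and the nearest gene outside was AFT1 at 19.985 RPKM. The threshold reads only the mRNA level, which is also the denominator of efficiency, and every one of the 4385 members entered the test described below.

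The series holds 20 libraries of strain SK1, made to compare Ded1 with its relative Dbp1 at a usual and at a raised temperature. In the DED1 cells at 30C the DED1 coding sequence lay behind its own regulatory regions, and 3 footprint and 3 mRNA libraries were made, numbered as replicates 1 to 3. The other 3 groups were DED1 cells at 37C, DBP1 cells at 30C, in which the DBP1 coding sequence stands in place of DED1, and DBP1 cells at 37C. All cells grew with aeration in YEPD, a rich medium, to an optical density of 0.6 and met 100 uM cycloheximide, an inhibitor of elongation, for 1 min before harvest. Ribosome-protected pieces of 28 to 31 nt were sequenced as footprints, and 50 nt pieces of polyadenylated RNA as mRNA. Depth was 6.44 to 9.39 M reads in the 3 footprint libraries and 6.58 to 7.87 M reads in the 3 mRNA libraries, so that 1 read in a gene of 1 kb was worth 0.1065 to 0.1552 RPKM. The labels number the replicates and do not say that they were separate cultures, so the p-values measure the spread between these libraries, which may be technical. All 18 genes of a list of meiosis markers had mRNA levels of at most 10.9 RPKM, so none of these 18 was a member, though ISC10, a meiosis gene outside that list, was.

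A ribosome covers a short stretch of mRNA and shields it from nuclease, and sequencing the shielded fragments counts the ribosomes on each coding sequence. Footprints divided by mRNA, called translation efficiency, rank genes by ribosomes per transcript, which follows mostly from how often initiation succeeds and also from how fast ribosomes elongate. In yeast, structured leaders, short reading frames upstream of the start codon and retained introns are known to hold ribosomes back, and Ded1 is a helicase that opens leaders for the scanning ribosome.

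Efficiency had a median of 0.636 over the 4385 members, with quartiles of 0.441 and 0.933, and medians of 0.651, 0.628 and 0.630 in replicates 1, 2 and 3. Each library is scaled to its own depth, so a ratio of 1 has no meaning of its own, and only a gene's place relative to the median member can be read. Efficiency was above 1 in 926 members, so footprint RPKM below mRNA RPKM was the usual state of a member. The members from the 5th to the 95th percentile spanned 0.208 to 1.76, a range of 8.49-fold. This spread was far wider than the error. The SD of log2 efficiency over members was 1.04, and the median SD of 1 gene between replicates was 0.108. Spearman's rho of efficiency between replicates was 0.963 to 0.969 over the 4385 genes. Across the members, which share the 6 libraries and are not independent, footprints followed mRNA with a Spearman's rho of 0.874.

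A gene was called well loaded or poorly loaded when limma's treat test placed its log2 efficiency more than 1.5-fold above or below the median member, at an adjusted p under 0.05 over all 5220 genes tested. Of the members 624 (14.2%) were called higher and 555 (12.7%) lower, against 14.0% and 13.2% of all genes tested. All of these 1179 genes lay on the same side of the median in each of the 3 replicates. A call rests on these same replicates, so this is no separate support. With a replicate block 770 were higher and 637 lower. Tested against a ratio of 1 without centring, the split was 200 higher and 1709 lower, because the median member itself lies at a ratio below 1. Well loaded members had more mRNA, a median of 150.5 RPKM, than poorly loaded members, with 46.5 RPKM, or all members, with 75.01 RPKM.

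**Figure D1:**
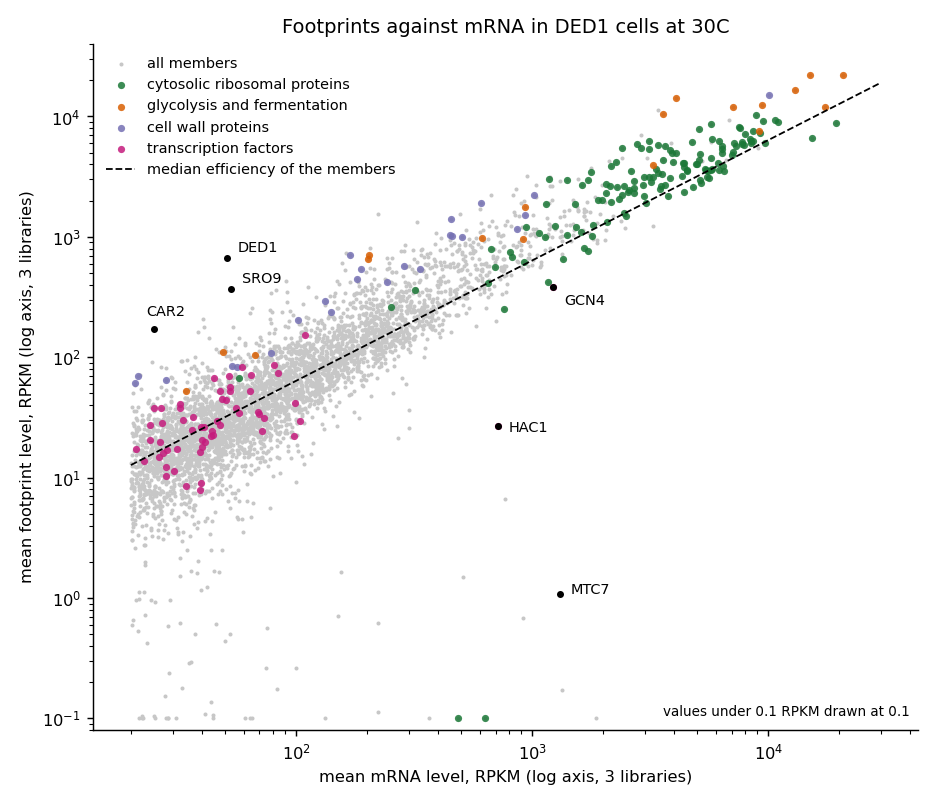
Mean footprint level (vertical, RPKM, log axis) against mean mRNA level (horizontal, RPKM, log axis) of the 4385 members, 1 point per gene, with 4 gene lists in colour and the median efficiency of 0.636 as a dashed line. Cell wall and glycolytic genes lie mostly above the line, DED1, SRO9 and CAR2 stand far above it, and HAC1 and MTC7 far below it.

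DED1 itself had the highest efficiency of all members. DED1 (YOR204W) had footprint levels of 617, 652 and 744 RPKM, against mRNA levels of 54.2, 50.6 and 48.5 RPKM. Its efficiency was 11.4, 12.9 and 15.3 in replicates 1, 2 and 3, against 0.636 for the median member. The mean was 13.2 ± 2.0 (SD, n = 3), a log2 efficiency of 4.33 ± 0.09 (SE) above the median member with an adjusted p of 3.56e-08 in limma. DBP1, the relative of DED1, had mean mRNA of 4.04 RPKM in these cells and was no member.

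CAR2 and SRO9 came next, at efficiencies that differed by less than their SD. SRO9 (YCL037C), a gene for an RNA-binding protein of the La family that associates with translating ribosomes, had footprint levels of 340, 364 and 413 RPKM, against mRNA levels of 55.3, 47.1 and 56.6 RPKM, an efficiency of 7.05 ± 0.82 (SD, n = 3). CAR2 (YLR438W), the ornithine aminotransferase of arginine breakdown, had footprint levels of 194, 167 and 156 RPKM, against mRNA levels of 31.4, 25.4 and 18.1 RPKM. Both assays were highest in replicate 1 for CAR2, and its efficiency was 7.12 ± 1.31 (SD, n = 3). CHC1 (YGL206C), the clathrin heavy chain, had footprint levels of 230.5, 199 and 192 RPKM, against mRNA levels of 45.2, 40.9 and 35.3 RPKM. FLO11 (YIR019C), a flocculin of the cell surface, varied among replicates, with footprint levels of 309, 412 and 580 RPKM, against mRNA levels of 67.3, 90.1 and 113.8 RPKM. Its footprints and mRNA moved together, and its efficiency of 4.75 ± 0.30 (SD, n = 3) varied little.

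The other members among the 12 highest were ARO1, the multifunctional enzyme of the shikimate pathway, at 4.53 ± 0.51, URA2, the first enzyme of pyrimidine synthesis, at 4.49 ± 0.68, and SEC31, a coat protein of vesicles that leave the endoplasmic reticulum (ER), at 4.45 ± 0.62 (SD, n = 3 each). SCP160, an RNA-binding protein with KH domains, had 4.43 ± 0.39, the glucanase-related cell wall gene SCW4 had 4.27 ± 0.72, SIM1 had 4.23 ± 0.54 and PAB1, the poly(A)-binding protein, had 4.06 ± 0.46 (SD, n = 3 each). The 12 were picked from called members with a gene symbol that lay on the same side of the median in every replicate. Passing the test was thus a condition of the choice and no separate result. Efficiency exceeded 2 in 147 members and was under 0.2 in 202.

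**Figure D2:**
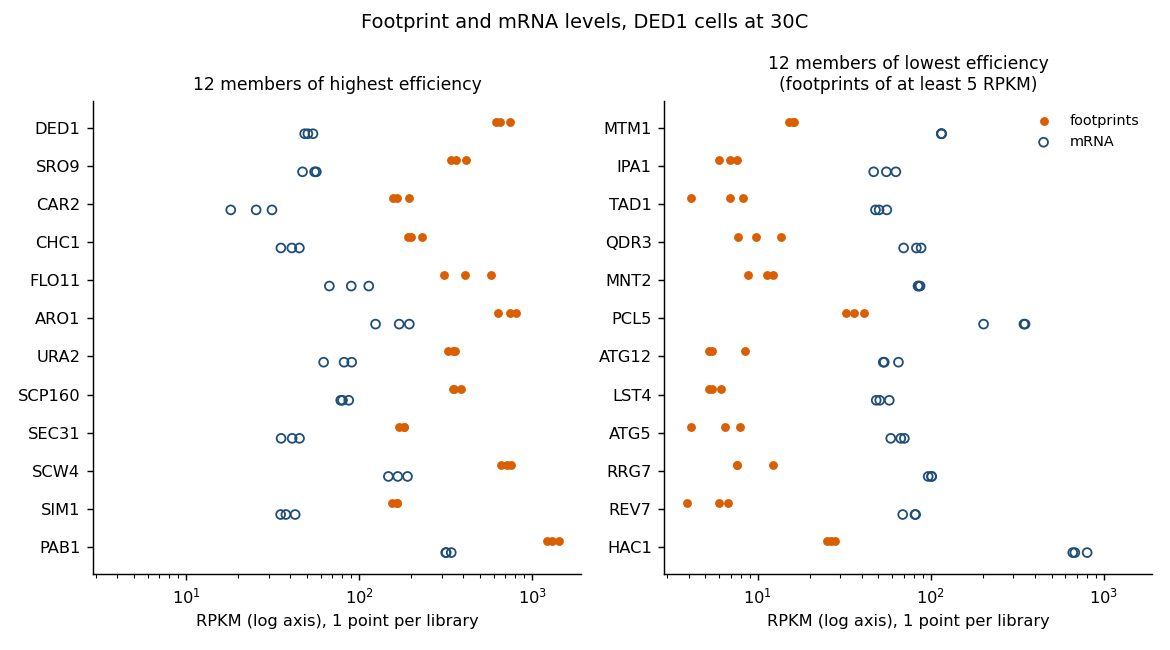
RPKM in each of the 3 footprint libraries (filled) and the 3 mRNA libraries (open) on log axes, for the 12 members of highest efficiency (left) and the 12 of lowest efficiency among members with footprints of at least 5 RPKM, a gene length of at least 300 nt and no overlapping gene (right), highest at the top of each panel. The genes were drawn from those called by the test. That footprint and mRNA points do not overlap in either panel follows largely from this choice.

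Gene lists for 33 processes had members, and together they held 1019 of the 4385. Of these 1019 members 257 were called higher and 34 lower, against 624 (14.2%) and 555 (12.7%) of all 4385 members. Well loaded genes were thus a larger share of the lists than of all members, and poorly loaded genes a smaller one. The counts of each list below are to be set against these 14.2% and 12.7%, shares that also change with mRNA level. Of the 33 lists, 27 had a median above that of all members, and the median of each list fell on the same side with median-of-ratios scaling. With members taken from 50 RPKM of mRNA, 5 of the 33 medians changed side, those of the proteasome, the chaperonin and prefoldin, RNA polymerase subunits, nucleoporins and splicing factors. Set against a ratio of 1, 19 of the 27 medians lie below it and 8 above, so "higher" and "lower" below always mean relative to the median member.

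**Figure D3:**
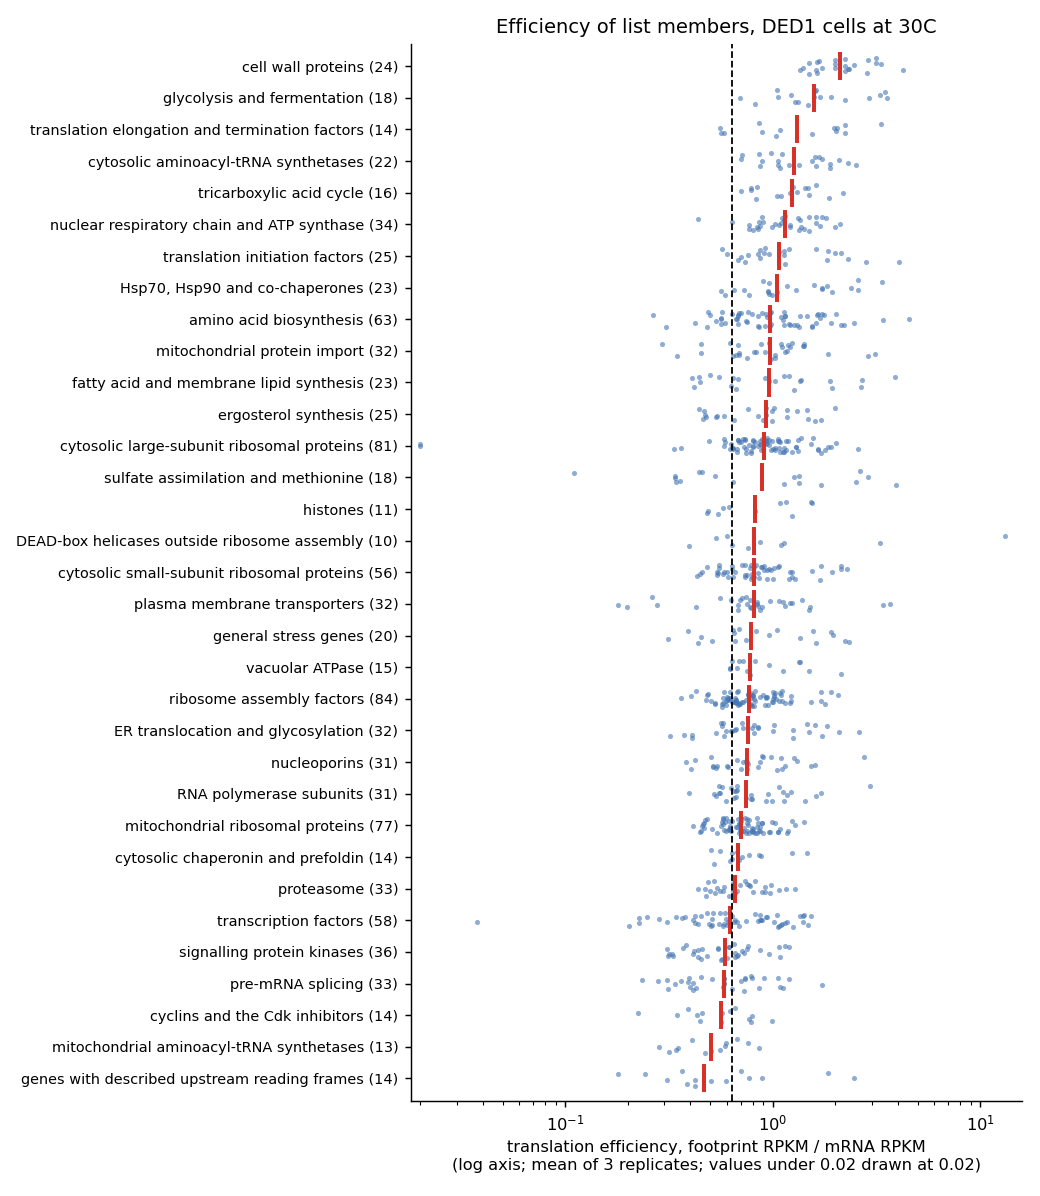
Translation efficiency (log axis, mean of 3 replicates) of each member of the 33 gene lists, 1 point per gene, with the list's median as a red bar, the number of members in brackets and the median of all members, 0.636, as a dashed line. Cell wall proteins stand highest at a median of 2.12 and genes with described upstream reading frames lowest at 0.465.

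Cell wall genes were the best loaded list. Of 24 members 23 were called higher and 0 lower, and their median efficiency was 2.12 against 0.636 over all members. SCW4 (YGR279C) had footprint levels of 658, 757 and 713 RPKM, against mRNA levels of 190.5, 167 and 148 RPKM. ECM33 (YBR078W), a GPI-anchored wall protein, had footprint levels of 1329, 1446 and 1472 RPKM, against mRNA levels of 481, 443 and 434 RPKM. The efficiency of each was above the median member in every replicate, with adjusted p of 1.72e-06 and 1.08e-06 in limma. PIR1, a wall protein linked to glucan, reached an efficiency of 2.89 ± 0.20 and GAS1, a glucan-remodelling enzyme, 2.30 ± 0.09 (SD, n = 3 each). The lowest of the list, UTR2, a chitin transglycosylase, still had 1.35 ± 0.04 (SD, n = 3) and was called. PST1, singled out as the gene of the list that was not called, had 1.50 ± 0.06 (SD, n = 3) and an adjusted p of 0.0506.

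Genes of the secretory pathway divided more evenly. Among 32 genes of ER translocation and glycosylation the median was 0.756, with 8 called higher and 1 lower, or 2 lower with a replicate block. SEC61, the channel of the ER membrane, had 2.61 ± 0.29, PDI1, the disulfide isomerase, 2.10 ± 0.20 and SBH1, a small channel subunit, 1.82 ± 0.05 (SD, n = 3 each). The oligosaccharyltransferase subunit OST3 had 1.61 ± 0.04, whereas OST6, its alternative in the same complex, had 0.318 ± 0.004 (SD, n = 3 each) and was the lower call. Of 32 plasma membrane transporters 5 were called higher (15.6%) and 4 lower (12.5%), shares near the 14.2% and 12.7% of all members, with a median of 0.814. With a replicate block 10 were higher and 4 lower.

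PMA1, the proton pump of the plasma membrane, had footprint levels of 3179, 3292 and 3189 RPKM, against mRNA levels of 1065, 933 and 854 RPKM, an efficiency of 3.42 ± 0.39 (SD, n = 3). PTR2, the peptide importer, had footprint levels of 64.8, 79.6 and 129.4 RPKM, against mRNA levels of 20.2, 19.9 and 33.5 RPKM. The zinc transporter ZRT2 (YLR130C) lay opposite, with footprint levels of 25.4, 27.1 and 28.1 RPKM, against mRNA levels of 141.8, 152 and 154 RPKM. Its efficiency was 0.18 ± 0.003 (SD, n = 3), with an adjusted p of 6.26e-06 in limma. The inositol transporter ITR1 had 0.198 ± 0.019 (SD, n = 3), and the other lower calls were MEP3, an ammonium permease, and TRK1, a potassium transporter.

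Glycolysis and fermentation came second among the lists. Of 18 members 13 were called higher (72.2%) and 0 lower, with a median of 1.59. Their median mRNA was 3422 RPKM, and of all members from 1000 RPKM up 29.3% were called higher. PDC1 (YLR044C), the main pyruvate decarboxylase, had footprint levels of 13907, 14581 and 14624 RPKM, against mRNA levels of 4270, 4030 and 3869 RPKM. Its efficiency was 3.55 ± 0.27 (SD, n = 3), with an adjusted p of 3.98e-07 in limma. The phosphofructokinase subunits PFK1 and PFK2 had 3.50 ± 0.25 and 3.30 ± 0.37, and the pyruvate kinase CDC19 had 2.93 ± 0.29 (SD, n = 3 each). The phosphoglycerate mutase GPM1 was lowest at 0.692 ± 0.041 (SD, n = 3) and was not called, although its mRNA was among the most abundant, at 17064 to 17792 RPKM.

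Respiratory genes were also well loaded. The tricarboxylic acid cycle had 9 of 16 members called higher (56.25%) and 0 lower, with a median of 1.23. The nuclear-encoded subunits of respiration and the ATP synthase had 18 of 34 called higher (52.9%) and 0 lower, with a median of 1.14. Their median mRNA levels were 263.9 and 864.7 RPKM. Of all members of 200 to 500 RPKM 22.9% were called higher, and of those of 500 to 1000 RPKM 32.6%. KGD1, the first subunit of oxoglutarate dehydrogenase, had 2.172 ± 0.256 and the aconitase ACO1 had 1.49 ± 0.10 (SD, n = 3 each). CYC1, the main cytochrome c, had 2.11 ± 0.08 and ATP1, the alpha subunit of ATP synthase, 1.999 ± 0.104 (SD, n = 3 each). COX5B, the isoform of a cytochrome oxidase subunit used at low oxygen, was lowest at 0.437 ± 0.115 (SD, n = 3) and was not called.

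Genes for protein synthesis inside mitochondria were nearer the median member or below it. Of 77 mitochondrial ribosomal proteins 4 were called higher (5.19%, against 14.2% of all members) and 0 lower, with a median of 0.705. Without mRNA replicate 2 the number called higher was 2. The list's median mRNA was 221.6 RPKM, and of all members of 200 to 500 RPKM 22.9% were called higher. MRP10 was highest at 1.41 ± 0.11, and the others called were IMG1 at 1.275 ± 0.030, MRP20 and MRPL44 (SD, n = 3 each). The calls of MRP20 and MRPL44 ended without mRNA replicate 2, at adjusted p of 0.0643 and 0.136. MRPL44 also lost its call without footprint replicate 1, footprint replicate 3 or mRNA replicate 3, at 0.0849, 0.107 and 0.0617. The 13 mitochondrial aminoacyl-tRNA synthetases had a median of 0.503, with 0 called higher and 2 lower (15.4%, against 12.7% of all members). With a replicate block 4 were lower. MSE1 and MSR1, which charge glutamate and arginine tRNAs, had 0.283 ± 0.031 and 0.316 ± 0.020 (SD, n = 3 each). In mitochondrial protein import 10 of 32 were called higher and 2 lower, or 1 lower without mRNA replicate 2, with a median of 0.969. The Hsp70 of the matrix, SSC1, had 3.11 ± 0.21 and TOM40, the channel of the outer membrane, 2.88 ± 0.10, whereas SAM50, which inserts outer membrane proteins, had 0.294 ± 0.032 (SD, n = 3 each).

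Genes of the cytosolic ribosome lay somewhat above the median member. Their median mRNA levels were 3250 RPKM for the large subunit and 4209 RPKM for the small. The 229 members from 1000 RPKM up, which include many of these genes, had a median efficiency of 0.906. Of these 229 members 29.3% were called higher, against 14.2% of all members. Large-subunit proteins had 20 of 81 members called higher (24.7%) and 2 lower, or 4 lower with a replicate block, with a median of 0.909. Small-subunit proteins had 12 of 56 called higher (21.4%) and 0 lower, with a median of 0.814. RPL6B reached 2.56 ± 0.13, RPS29B 2.29 ± 0.12, RPS15 2.13 ± 0.15 and RPP0, the stalk base, 2.01 ± 0.21 (SD, n = 3 each). RPS12 (YOR369C) had footprint levels of 6243, 6468 and 6983 RPKM, against mRNA levels of 14070, 15102 and 16764 RPKM. Its efficiency was 0.43 ± 0.014 (SD, n = 3), below the median member, but it was not called. Most of these genes have a near-identical copy, and the counting of reads that copies share is not given in the sources used here. For comparison, the 114 genes with an A or B in their name had a median of 0.872 and the 23 without had 0.893. The lower calls were RPL41A and RPL41B, whose gene length of 78 nt is the shortest in the list. Their footprints were listed at 0 in all 3 libraries. Lengths 60 nt shorter fitted the RPKM values, which leaves little of a 78 nt gene. Whether the 0 values come from the counting was not tested.

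Lists of translation factors had higher medians than the ribosomal proteins. Of 25 initiation factors 11 were called higher and 0 lower, with a median of 1.08. PAB1 (YER165W) had footprint levels of 1224, 1308 and 1426 RPKM, against mRNA levels of 341, 319 and 317 RPKM. Its efficiency was 3.59, 4.10 and 4.50 in replicates 1, 2 and 3, with an adjusted p of 4.88e-07 in limma. NIP1, a subunit of eIF3, had 2.30 ± 0.23, FUN12, which is eIF5B, 2.13 ± 0.19 and GCD11, the gamma subunit of eIF2, 1.99 ± 0.08 (SD, n = 3 each). GCN3, a regulatory subunit of eIF2B, was lowest at 0.569 ± 0.045 (SD, n = 3) and was not called.

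Elongation and termination factors had 7 of 14 members called higher and 0 lower, with a median of 1.31. HYP2 (YEL034W), which encodes eIF5A, had footprint levels of 11041, 11022 and 11761 RPKM, against mRNA levels of 3550, 3258 and 3411 RPKM. That is an efficiency of 3.31 ± 0.18 (SD, n = 3) with an adjusted p of 4.84e-07 in limma. TEF4 and CAM1, both eEF1B gamma proteins, had 2.23 ± 0.14 and 2.23 ± 0.13, and the fungal elongation factor YEF3 had 2.04 ± 0.12 (SD, n = 3 each). The near-identical eEF1A genes TEF1 and TEF2 had 0.56 ± 0.03 and 0.863 ± 0.116 (SD, n = 3 each), values that are uncertain because reads of the copies cannot be told apart. SUP45, the release factor eRF1, was lowest at 0.555 ± 0.024 (SD, n = 3).

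Cytosolic aminoacyl-tRNA synthetases had 13 of 22 members called higher and 0 lower, with a median of 1.26, against 0.503 for the mitochondrial ones. DPS1, which charges aspartate tRNA, had 2.52 ± 0.18, GUS1 for glutamate 2.30 ± 0.15 and GRS1 for glycine 0.705 ± 8.3e-05 (SD, n = 3 each). Factors that assemble ribosomes in the nucleolus were nearer the median, with 8 of 84 called higher (9.52%, against 14.2% of all members) and 0 lower and a median of 0.772. With a replicate block 13 were higher and 1 lower. That 1 was RCL1, at 0.359 ± 0.029 (SD, n = 3) and an adjusted p of 0.206 without the block and 0.0122 with it. ERB1 had 2.07 ± 0.17 and NOP1, the methyltransferase fibrillarin, 1.70 ± 0.003 (SD, n = 3 each). DEAD-box helicases other than those of ribosome assembly had 2 of 10 called higher (20.0%), which were DED1 and DHH1, a decapping activator with 3.31 ± 0.37 (SD, n = 3). With a replicate block 4 were called, and the median was 0.816.

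Biosynthesis of small molecules held many well loaded enzymes. Of 63 amino acid genes 20 were called higher and 1 lower, or 2 lower with a replicate block, with a median of 0.975. ARO1 (YDR127W) had footprint levels of 804, 745 and 634 RPKM, against mRNA levels of 195.2, 171 and 124.5 RPKM. Both assays were lowest in replicate 3, and the efficiency was high in all 3. The glutamate synthase GLT1 had 3.39 ± 0.39, and ARG2, the first enzyme of arginine synthesis, was the lower call at 0.266 ± 0.015 (SD, n = 3 each).

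The sulfur and methionine pathway was spread widely. Of its 18 members 8 were called higher and 1 lower, with a median of 0.885 and quartiles of 0.378 and 1.61. The lower count was 3 with a replicate block and 2 without mRNA replicate 3. MET6, the methionine synthase, had 3.92 ± 0.59, SAH1, which clears S-adenosylhomocysteine, had 2.87 ± 0.24, and MET1, which makes the cofactor of sulfite reductase, had 0.111 ± 0.011 (SD, n = 3 each). Fatty acid and membrane lipid synthesis had 10 of 23 called higher and 0 lower, with a median of 0.962, and ergosterol synthesis 7 of 25 and 0 lower, with a median of 0.930. The fatty acid synthase genes FAS1 and FAS2 had 3.90 ± 0.47 and 2.70 ± 0.27 (SD, n = 3 each).

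Among chaperones the medians differed by kind. Hsp70, Hsp90 and their partners had 10 of 23 members called higher and 0 lower, with a median of 1.05. SSA2, a cytosolic Hsp70, had 3.37 ± 0.24, the co-chaperone STI1 2.587 ± 0.135 and SSE1, a nucleotide exchange factor, 2.39 ± 0.16 (SD, n = 3 each). The ring-shaped chaperonin and prefoldin had 2 of 14 called higher (14.3%, against 14.2% of all members), PAC10 and GIM5, with a median of 0.680. The proteasome had 2 of 33 called higher (6.06%), PUP1 and PRE1, with a median of 0.655. Its count was 1 without footprint replicate 1 or 2 or mRNA replicate 2 or 3. General stress genes had 6 of 20 higher (30.0%) and 0 lower with a median of 0.789, and 1 was lower without footprint replicate 1. The vacuolar ATPase had 5 of 15 higher (33.3%) and 0 lower with a median of 0.781, of which VMA10, a stalk subunit, was highest at 2.14 ± 0.10 (SD, n = 3).

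Of 11 histone genes 5 were called higher and 0 lower, with a median of 0.819. HTB1 and HTB2, which encode histone H2B, had 1.23 ± 0.06 and 1.16 ± 0.02, the variant HTZ1 had 1.54 ± 0.09 and the linker histone HHO1 1.53 ± 0.13 (SD, n = 3 each). HTA2, the H2A gene paired with HTB2, had 0.483 ± 0.055 (SD, n = 3) and was not called. The count was 3 without footprint replicate 2, footprint replicate 3 or mRNA replicate 1, and the call of HTB2 ended then at adjusted p of 0.085, 0.0686 and 0.0515. Histone mRNAs of yeast carry poly(A) tails, and gene pairs encode like proteins, so the values of copies are uncertain.

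RNA polymerase subunits had 5 of 31 members called higher (16.1%, against 14.2% of all members) and 0 lower, with a median of 0.747. With a replicate block 8 were higher. RPO21 (YDL140C), the largest subunit of polymerase II, had footprint levels of 80.5, 81.4 and 81.9 RPKM, against mRNA levels of 32.7, 27.8 and 23.9 RPKM. Footprints of RPO21 hardly varied, and its efficiency was 2.94 ± 0.48 (SD, n = 3). The small subunit RPB4 was lowest at 0.394 ± 0.026 (SD, n = 3) and was not called. Nucleoporins had 6 of 31 called higher (19.4%) and 0 lower with a median of 0.753. With members from 50 RPKM of mRNA 1 nucleoporin was called and their median lay on the other side of the median member, at a log2 efficiency of -0.06 against 0.24. NSP1, which carries repeats that fill the pore, had 2.75 ± 0.40 (SD, n = 3).

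Among regulators, transcription factors had 6 of 58 members called higher (10.3%) and 8 lower (13.8%), with a median of 0.620. The shares of all members were 14.2% and 12.7%. With a replicate block 9 transcription factors were higher and 8 lower. SKN7, a regulator of the oxidative stress response, had 1.52 ± 0.19 and RAP1, the activator of ribosomal protein genes, 1.48 ± 0.06, whereas ARG81, a regulator of arginine genes, had 0.203 ± 0.014 and SUT2 had 0.227 ± 0.010 (SD, n = 3 each). Signalling kinases had 1 of 36 called higher (2.78%), STE20 of the mating and filamentation cascades, and 4 lower (11.1%), with a median of 0.587. The higher count was 3 with a replicate block and 2 without mRNA replicate 1. The lower count was 2 without any of footprint replicates 2 and 3 and mRNA replicates 1 and 2. CHK1, a checkpoint kinase, had 0.308 ± 0.023, MKK1 of the cell integrity cascade 0.317 ± 0.005 and TPK3 of the cAMP pathway 0.33 ± 0.024 (SD, n = 3 each). The call of MKK1 ended without those same 4 libraries, at adjusted p of 0.0524 to 0.0750.

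Cyclins and the inhibitors of their kinase had 0 of 14 members called higher and 2 lower (14.3%), near the 12.7% of all members. Their median was 0.564. CLB1 (YGR108W), a mitotic cyclin, had footprint levels of 18.2, 17.2 and 13.4 RPKM, against mRNA levels of 74.1, 81.8 and 61.7 RPKM. Its efficiency was 0.224 ± 0.019 (SD, n = 3). The other lower call, CLB3, ended without footprint replicate 2 or 3 or mRNA replicate 2 or 3, at adjusted p of 0.0706, 0.0724, 0.127 and 0.0641, so that 1 was left. Splicing factors had 2 of 33 called higher (6.06%) and 5 lower (15.2%), with a median of 0.582. The shares of all members were 14.2% and 12.7%. The higher calls were SMX3 at 1.72 ± 0.07 (SD, n = 3) and SMX2, both small Sm proteins, and 1 was left without footprint replicate 2 or mRNA replicate 1 or 3. The lower calls included PRP42 at 0.235 ± 0.029, PRP16 at 0.280 ± 0.041 and PRP19 at 0.308 ± 0.050 (SD, n = 3 each).

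Genes known for reading frames upstream of the start codon had the lowest median of the 33 lists, 0.465. With members from 50 RPKM of mRNA they were not the lowest, at a median log2 efficiency of -0.31. Mitochondrial aminoacyl-tRNA synthetases then had -0.84 and cyclins -0.45. Of the 14 members with upstream frames 2 were called higher (14.3%) and 3 lower (21.4%), against 14.2% and 12.7% of all members. CPA1 (YOR303W), which is repressed through an arginine-sensing upstream peptide, had footprint levels of 64.0, 62.0 and 74.8 RPKM, against mRNA levels of 311.8, 286 and 248 RPKM. Its efficiency was 0.241 ± 0.053 (SD, n = 3), with an adjusted p of 0.0003 in limma. PET111, an activator of a mitochondrial mRNA, had 0.179 ± 0.007 (SD, n = 3). GCN4 (YEL009C), the activator of amino acid genes whose upstream frames are the textbook case, had footprint levels of 426, 436 and 290.5 RPKM, against mRNA levels of 1293, 1265 and 1124 RPKM. Its efficiency was 0.311 ± 0.046 (SD, n = 3) against 0.636 for the median member, with an adjusted p of 0.0306 in limma. Without mRNA replicate 1 or 2 it was not called, at 0.102 and 0.0914. LEU4, of leucine synthesis, and TIF4631, which is eIF4G, are on the same list and were the higher calls, at 2.46 ± 0.21 and 1.85 ± 0.12 (SD, n = 3 each).

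HAC1 (YFL031W) was the most poorly loaded member among those with footprints of at least 5 RPKM, a gene length of at least 300 nt and no overlapping gene. It encodes the activator of the unfolded protein response, and in unstressed cells its mRNA is known to keep an intron that pairs with the leader and blocks translation. It had footprint levels of 26.7, 28.1 and 25.3 RPKM, against mRNA levels of 803, 663 and 682 RPKM. Its efficiency was 0.0376 ± 0.0046 (SD, n = 3) against 0.636 for the median member, with a log2 efficiency of -4.05 ± 0.09 (SE) and an adjusted p of 6.79e-08 in limma.

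The 11 next lowest members by the same criteria were chosen after their values were seen. PCL5 (YHR071W), the cyclin that marks Gcn4 for destruction, had a mean of 36.6 RPKM of footprints against 300 RPKM of mRNA, an efficiency of 0.127 ± 0.029 (SD, n = 3). ATG5 and ATG12, partners in autophagy, had 0.0952 ± 0.0320 and 0.114 ± 0.040, and LST4, of amino acid signalling, had 0.107 ± 0.005 (SD, n = 3 each). REV7, a subunit of a DNA polymerase that bypasses damage, had 0.0708 ± 0.0133 and the carrier MTM1 of mitochondria 0.136 ± 0.005 (SD, n = 3 each). The rest were RRG7, MNT2, QDR3, TAD1 and IPA1, at 0.0926 to 0.128.

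Below these, 52 members had mean footprints under 1 RPKM, of which 13 were listed at 0. No RefSeq gene matched 17 of the 52. Of the other 35, gene lengths of at most 300 nt were found in 8, an overlap with another gene in 6, and a neighbour upstream on the same strand in 23, which is 65.7% against 48.2% of all matched members. MTC7 (YEL033W) had footprint levels of 1.22, 1.13 and 0.892 RPKM, against mRNA levels of 1298, 1347 and 1276 RPKM. Its upstream neighbour on the same strand is HYP2, with a mean of 11275 RPKM of footprints and 3406 RPKM of mRNA. Whether mRNA reads assigned to MTC7 come from transcripts of HYP2 was not tested. ISC10, a meiosis gene, CNM1 and the nitrogen gene DAL7 also had footprints below 0.5 RPKM in each library, with mRNA of 28.7 to 48.7 RPKM. MAL31, a maltose permease, was listed at 0 in all 3 footprint libraries, with mRNA of 32.5, 27.7 and 25.8 RPKM. The 66 members that matched no RefSeq gene had a median of 0.291, with 6 called higher and 35 lower (53.0%), against 12.04% lower of the 4319 matched members.

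Efficiency was higher at both ends of the range of gene length. Its median was 0.851 in the 141 members of up to 300 nt, lowest at 0.579 in the 1052 of over 1200 to 1800 nt, and 1.00 in the 43 above 4500 nt. The SD of these medians over the 3 replicates was at most 0.0698. Without ribosomal proteins each of the 8 medians moved by less than that SD. As length went with mRNA level, the ends were also compared within levels. Among members of 20 to 50 RPKM of mRNA the median was 0.566 up to 600 nt, 0.505 from 600 to 2700 nt and 0.683 above 2700 nt. The same order of middle and ends held from 50 to 200 RPKM, with 0.719, 0.597 and 0.953, and from 200 RPKM, with 0.860, 0.783 and 1.88, the last over 10 genes only. Spearman's rho with length over all matched members was -0.03. Which stretch of a gene was counted is not given in the sources used here, though lengths 60 nt shorter fitted the RPKM values. This weighs most on short genes.

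Efficiency was higher in more abundant mRNAs. Median efficiency was 0.537 in members of 20 to 30 RPKM of mRNA and 0.906 in the 229 members from 1000 RPKM up, and the share called lower was 19.9% and 1.75% at these ends. The share called higher was 10.0% and 29.3%. Spearman's rho of efficiency with mRNA was 0.307 over the members, although mRNA is the denominator of the ratio. The comparison by mRNA level was not repeated without ribosomal proteins, many of which are among the most abundant mRNAs.

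**Figure D4:**
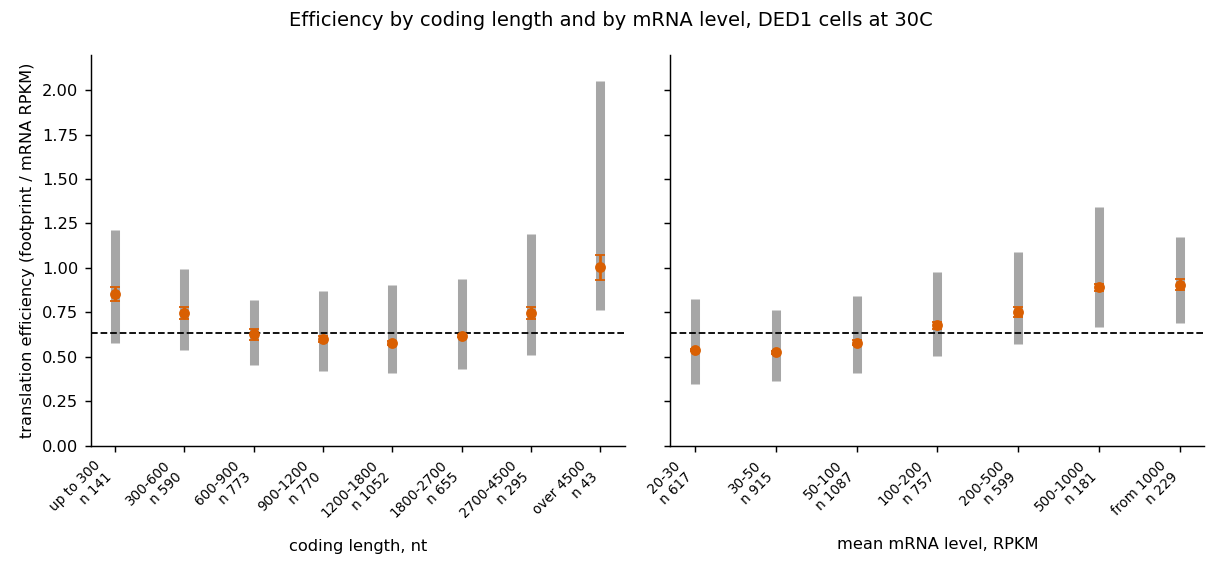
Median translation efficiency (points, with the SD of the median over the 3 replicates as bars) and quartiles (grey) by gene length in nt (left, where the axis reads coding length) and by mean mRNA level in RPKM (right), with the number of members under each bin and the median of all members as a dashed line. The medians are higher at both ends of length, 0.851 and 1.00, and by mRNA level they are lowest at 0.524 in the bin of 30 to 50 RPKM and climb in each later bin, up to 0.906.

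Within several protein complexes footprints were more even than mRNA. The complexes were chosen after the values were seen, so this is a description with no test. The 14 subunits of the 20S proteasome spanned 190 to 268 RPKM of footprints, against 155 to 480 RPKM of mRNA, with an SD of log2 levels of 0.146 for footprints and 0.451 for mRNA. PUP3, with 480 RPKM of mRNA, had an efficiency of 0.470 ± 0.006, and PUP1, with 155 RPKM, had 1.28 ± 0.03 (SD, n = 3 each). The subunits of eIF2 spanned 508 to 599 RPKM of footprints against 256 to 626 RPKM of mRNA, and those of eIF3 spanned 321 to 574 against 140 to 757 RPKM. The 7 subunits particular to RNA polymerase II had an SD of log2 levels of 0.516 for footprints and 1.16 for mRNA, and RPO21 had both the fewest transcripts, 28.1 RPKM, and the highest efficiency. FAS1 and FAS2 had 607 and 550 RPKM of footprints, against 157 and 205 RPKM of mRNA. The ATP synthase went the other way, with 0.468 for footprints and 0.333 for mRNA, as did the vacuolar ATPase, with 1.29 and 1.06, and phosphofructokinase, with 0.0792 and 0.0153 over 2 subunits.

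**Figure D5:**
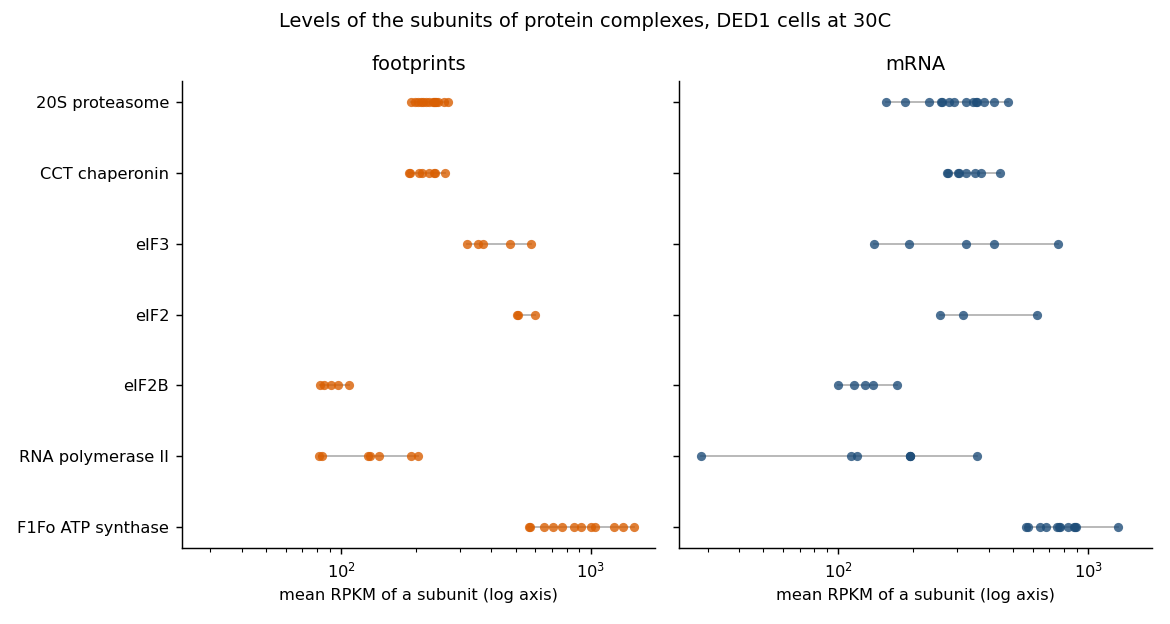
Mean level of each subunit of 7 protein complexes in footprints (left) and in mRNA (right), in RPKM on log axes, 1 point per subunit, with a line over the range. Footprint points of the 20S proteasome, from 190 to 268 RPKM, are closer together than its mRNA points, from 155 to 480 RPKM, while those of the ATP synthase are farther apart.

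As shares of all RPKM in a library, 10.6% ± 0.7 of footprints fell on glycolysis and fermentation, against 7.57% ± 0.72 of mRNA. Cytosolic ribosomal proteins of the large subunit took 22.1% ± 1.1 of footprints against 22.0% ± 1.3 of mRNA, and those of the small subunit 16.2% ± 0.7 against 18.6% ± 1.1. Elongation and termination factors took 2.01% ± 0.06 against 0.924% ± 0.027, and mitochondrial aminoacyl-tRNA synthetases 0.0285% ± 0.0031 against 0.0565% ± 0.0061 (SD, n = 3 each).

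Few genes differed in efficiency from the mean of the other 3 groups in the main fit, which had no replicate block, and more did with the block. Across the members, Spearman's rho with the efficiency in DED1 cells at 37C, DBP1 cells at 30C and DBP1 cells at 37C was 0.958, 0.982 and 0.950. List medians in DED1 cells at 30C, DED1 cells at 37C, DBP1 cells at 30C and DBP1 cells at 37C were 2.12, 2.06, 2.10 and 1.92 for cell wall genes, 1.59, 1.76, 1.53 and 1.77 for glycolysis, and 0.465, 0.457, 0.495 and 0.455 for genes with upstream reading frames. For sulfur genes they were 0.885, 0.614, 0.696 and 0.598. The difference itself was tested in limma as efficiency in DED1 cells at 30C minus the mean of the other 3 groups, over 4977 genes. In it 68 genes (1.37%) passed, of which 60 (1.21%) were higher and 8 (0.161%) lower, and of the 4285 members tested 41 were higher and 3 lower. With a replicate block 206 were higher and 100 lower. The 60 were 13 without mRNA replicate 2, 17 without mRNA replicate 3, and 26, 26 and 22 without footprint replicates 1, 2 and 3 of DED1 cells at 30C. They were 36 without footprint replicate 2 of DBP1 cells at 37C and 38 without footprint replicate 2 of DED1 cells at 37C. The 8 were 5 without mRNA replicate 2 of DED1 cells at 30C.

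MET5, the sulfite reductase subunit, had an efficiency of 1.70 ± 0.09 in DED1 cells at 30C (SD, n = 3). It had 0.618 ± 0.009 in DED1 cells at 37C (SD, n = 2), 1.13 ± 0.12 in DBP1 cells at 30C (SD, n = 3) and 0.656 ± 0.201 in DBP1 cells at 37C (SD, n = 2). The replicates at 30C in DED1 cells were 1.61, 1.80 and 1.69, all above the means of the other 3 groups, and the adjusted p was 0.0101. HEL2, a ubiquitin ligase that senses collided ribosomes, had 1.13 ± 0.13 in DED1 cells at 30C, against 0.678 ± 0.092 in DED1 cells at 37C, 0.866 ± 0.064 in DBP1 cells at 30C and 0.482 ± 0.044 in DBP1 cells at 37C. Its adjusted p was 0.00422. GNT1, a glycosyltransferase, was lower, with 0.277 ± 0.010 in DED1 cells at 30C, against 0.477 ± 0.042 in DED1 cells at 37C, 0.303 ± 0.025 in DBP1 cells at 30C and 0.409 ± 0.044 in DBP1 cells at 37C. Its adjusted p was 0.00955. DED1 was higher at an adjusted p of 0.00439, but the coding sequence is replaced in DBP1 cells, so its informative value is 8.64 ± 0.39 in DED1 cells at 37C (SD, n = 2). The call of MET5 ended without mRNA replicate 2 of DED1 cells at 30C, at an adjusted p of 0.0503, and those of HEL2 and GNT1 held without each of the 20 libraries.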

How the data were processed

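The authors deposited a table of RPKM values per gene and library, which are read counts scaled by gene length and by the depth of the library. CASAVA, bcl2fastq 2.17 and Bowtie2 were used, per the submitters' processing notes. Which build and counter were used, and how shared reads were treated, is not given in the sources used here. Names, neighbours and gene lengths came from RefSeq R64 of another strain, S288C, which matched 5994 of 6679 genes (89.7%). These are not all coding lengths, as those of RPS0B, at 1118 nt, and NSP1, at 2590 nt, are not whole numbers of codons. Such genes may stand in a length bin above that of their coding sequence. Depth was recovered from steps between low RPKM values. With lengths 60 nt shorter, 86.6% to 90.5% of values per library were whole reads within 0.02.

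Libraries were grouped by their labels. Efficiency is the ratio of footprint to mRNA RPKM at the same replicate number. Genes that averaged at least 5 RPKM over the 6 libraries were tested with limma 3.58.1 in R 4.3.3 on log2(RPKM + 1), as footprint minus mRNA centred on the median member. The treat test at 1.5-fold was two-sided, with Benjamini-Hochberg adjustment over the 5220 genes and a threshold of 0.05. Log2 values are on that scale, so they understate differences of genes near 0. The difference from the other 3 groups was tested in limma with eBayes over all 20 libraries. Both procedures were tested on simulated data.

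Same-numbered footprint and mRNA libraries deviated together from their group means, with correlations of 0.47, 0.40 and 0.61 for replicates 1, 2 and 3, so the numbers pair the samples. The replicate block, which uses this pairing, was an alternative fit. Calls and adjusted p printed without mention of the block come from the main fits, which leave the pairing out. Other alternatives were pseudocounts of 0.1 and 5, other filters, scaling, centring, folds, member thresholds, all 20 libraries in the fit and leaving out each library.

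Named genes were the 12 highest and 12 lowest called members, in each list the highest, the lowest and up to 4 by smallest adjusted p, and 7 set genes (DED1, DBP1, GCN4, HAC1, CPA1, TEF1, PMA1). Of the second test, up to 6 members per direction with the largest difference were named. Genes named outside this rule were chosen after their values were seen. The members and the lists were chosen with earlier results of these data known. Not every gene that the rule selects is printed, and some results are not reported here.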

Additional observations from a re-analysis of the deposited data

Results flagged for a closer look

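In the test of the difference from the other 3 groups, 11 named members had an efficiency in DED1 cells at 30C that differed from the mean of the other 3 groups, given here as log2 differences with limma's adjusted p under the threshold. Higher in DED1 cells at 30C were MET5 by 1.10, MME1, a mitochondrial carrier, by 0.92, SAN1, a nuclear ubiquitin ligase, by 0.78, KSP1, a protein kinase, by 0.78, HEL2 by 0.77, ARG81 by 0.57 and RPO21 by 0.48. DED1 was higher by 2.24, a value that includes DBP1 cells, where its coding sequence is replaced. Lower were DMO1 with -1.32, FUB1 with -0.50 and GNT1 with -0.48. The mean of the other 3 groups includes both groups at 37C, so a difference need not be particular to DED1 cells at 30C. Efficiency in DED1 and then DBP1 cells at 30C was 0.389 and 0.448 for FUB1 and 0.277 and 0.303 for GNT1. In that order it was 0.203 and 0.171 for ARG81 and 2.94 and 2.54 for RPO21. For DMO1 it was 1.15 and 2.51, for MME1 0.622 and 0.491, for SAN1 1.40 and 0.904, and for KSP1 0.726 and 0.529. The calls of ARG81, DMO1, FUB1, KSP1, MET5, MME1, RPO21 and SAN1 ended without at least 1 of the 20 libraries, mRNA replicate 2 of DED1 cells at 30C being among them for all 8, with adjusted p of 0.0503 to 0.104. RPO21 and KSP1 lost their calls without 10 and 14 libraries.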

How the results depend on the processing

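Calls of well and poorly loaded members moved most with the fold threshold and with centring. The numbers called higher and lower were 200 and 1709 without centring, 1573 and 1566 with no fold threshold, 275 and 250 at 2-fold, and 415 and 311 with members from 50 RPKM of mRNA. Without any 1 of the 6 libraries they were 548 to 632 and 465 to 549, and with the replicate block 770 and 637. The difference from the other 3 groups gave 25 higher and 5 lower genes when genes had to average 20 RPKM, 206 and 100 with the replicate block, and 14 lower with median-of-ratios scaling. Leaving out 1 of the 20 libraries gave 13 to 76 higher and 5 to 11 lower. The cause was not tested. Of 231 values of list medians over the settings other than leaving out a library, 103 moved by more than the spread between replicates, of which 33 were without centring, which shifts every list, 30 with members from 50 RPKM of mRNA and 20 with a pseudocount of 5. With members from 50 RPKM of mRNA the log2 median was -0.06 against 0.03 for the proteasome, -0.01 against 0.09 for the chaperonin and prefoldin, -0.03 against 0.22 for RNA polymerase subunits, -0.06 against 0.24 for nucleoporins and 0.13 against -0.13 for splicing factors. The second test had no fold threshold to begin with, so that alternative was the same test. Among named genes no direction reversed in any setting, and the replicate block added the calls of DMO1, HEL2 and RCL1 and changed no other efficiency call. GCN4 was not called with all 20 libraries in the fit, at an adjusted p of 0.211, and DED1 did not differ from the other 3 groups with a pseudocount of 0.1, at 0.253. Leaving out ribosomal proteins from the length comparison, and shares of reads in place of shares of RPKM, were chosen after seeing the data; by reads, footprints over mRNA for elongation and termination factors was 1.875, against 2.174 by RPKM. Start context, upstream ATG and removal of near-identical copies were not run, as no sequences were used here. Depth limits members near 20 RPKM, where 1 read in a gene of 1 kb was worth up to 0.1552 RPKM.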
